A study of Mus musculus with 8 samples.

Results

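The genes described here handle 4 small amino compounds of muscle: GABA, beta-alanine, carnosine and taurine. They are Abat, Aldh5a1, Carns1, Cndp2, Slc6a6, Gadl1 and Csad, 7 of the 24033 genes in the deposited table, and each was found in 1 row by its symbol. They were selected on their pathways with the FPKM differences of the same genotype comparison already known, so their differences between genotypes are given as a description. Where the fit over all genes placed one of them past or short of its threshold, that is stated as a property of the fit and supports nothing. RNA was sequenced from soleus muscle, a hindlimb muscle rich in slow fibres, of mice aged 2 months. The 4 MyoCre mice, the controls, carried 1 copy of Myogenin-Cre, a Cre recombinase under control of the myogenin gene, which differentiating muscle fibres express. In the 4 K15-SKO mice this Cre was joined to floxed Klf15 on both chromosomes, labelled K15F/F. All 8 mice therefore carried Cre, and cells of the K15-SKO muscle that never express myogenin keep the floxed gene. KLF15 is a Kruppel-like transcription factor with known roles in how muscle and liver use amino acids and fat.

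As background, GABA is a neurotransmitter in the brain, and outside it is an amino acid that is broken down in mitochondria. The GABA transaminase encoded by Abat moves its amino group to 2-oxoglutarate, and the dehydrogenase encoded by Aldh5a1 oxidises the product, succinic semialdehyde, to succinate for the tricarboxylic acid cycle. Abat also accepts beta-alanine, which Gadl1 makes from aspartate and which Carns1 joins to histidine to make carnosine, a pH buffer stored in muscle. Cndp2 is a cytosolic dipeptidase that cleaves carnosine and other dipeptides. Csad makes hypotaurine, the precursor of taurine, from cysteine sulfinate, and Slc6a6 carries taurine and beta-alanine into the cell.

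Promoter sequences were matched for 3 of the 7 genes, Aldh5a1, Gadl1 and Csad. Shown here are the enzymes on either side of Abat in the GABA pathway: Aldh5a1, which takes its product, and Aldh9a1, a dehydrogenase that makes GABA from 4-aminobutyraldehyde and is not among the 7. Each line gives the 250 bases before the annotated start from RefSeq (GRCm38.p6), 5′ to 3′ on the gene's strand, at chr13:24937662-24937911 on the minus strand for Aldh5a1 and chr1:167349741-167349990 on the plus strand for Aldh9a1. Capitals mark CACCC on either strand (read as GGGTG on the opposite one), a core that Kruppel-like factors are known to bind.
Aldh5a1: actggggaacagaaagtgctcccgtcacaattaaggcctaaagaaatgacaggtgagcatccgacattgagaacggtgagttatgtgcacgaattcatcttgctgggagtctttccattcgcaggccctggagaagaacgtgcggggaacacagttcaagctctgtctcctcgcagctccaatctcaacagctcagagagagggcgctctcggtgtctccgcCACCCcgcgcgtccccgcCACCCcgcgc
Aldh9a1: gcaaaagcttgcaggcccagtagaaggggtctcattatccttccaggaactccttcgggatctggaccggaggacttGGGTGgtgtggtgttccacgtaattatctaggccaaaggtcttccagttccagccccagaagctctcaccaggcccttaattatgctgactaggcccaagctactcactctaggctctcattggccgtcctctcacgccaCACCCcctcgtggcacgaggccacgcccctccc
Each of these windows held 2 matches, both close to the start in Aldh5a1. Of 32841 windows of this length in the promoter table, 52.0% held at least 1 match. The Gadl1 window held 0, and the 2 annotated starts of Csad held 1 and 0. For Aldh6a1, a dehydrogenase of beta-alanine breakdown that is also not among the 7, the 2 starts held 0 and 2. No window was matched for Abat, or for Adhfe1, a pathway gene described below. A match is a description of letters, not a binding site.

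The libraries' FPKM (fragments mapped to a gene, scaled by transcript length and library size) summed to between 519884 and 652275. Klf15 measured 44.5, 49.8, 49.1 and 22.8 FPKM in the MyoCre libraries while K15-SKO libraries had 15.7, 19.3, 16.7 and 13.1 FPKM, so the groups did not overlap and the deleted gene was reduced to 38.9% of the control mean (log2 fold change -1.28, SE 0.25, limma adjusted p = 0.0315). That adjusted p passed 0.05 in 7 of 18 alternative fits and ranged from 0.000195 to 0.268. All 10 muscle fibre markers had values in every library, with Myh7, the slow myosin, between 669.2 and 2280 FPKM. MyoCre replicate 2 was the only male library, with 64.8 FPKM summed over 4 Y-linked genes against 0 in the other 7. K15-SKO replicate 3 had the lowest median-of-ratios factor (a measure of overall level), 0.801 against 0.967 to 1.16. Over all 12535 genes tested, the median log2 fold change was -0.12, and fold changes are also given relative to it.

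Abat RNA in K15-SKO muscle was 36.5% of the control mean with no overlap between the genotypes, while the libraries of the other 6 genes overlapped. Of the 7, 1 was lower and 0 were higher past an adjusted p of 0.05, where 0.183% of all tested genes were called lower and 0.367% higher, the 46 higher ones all listed at 0 in every MyoCre library. All 7 passed the filter of a mean of 1 FPKM over the 8 libraries. Also, 1 of the 7 had groups that did not overlap, against 2.72% of tested genes that were lower without overlap. Because the genes were chosen with this comparison known, nothing is read from those counts. Their median log2 fold change was -0.21, or -0.09 relative to all tested genes, and 4 of the 7 lay below the median of all genes and 3 above it. In bulk muscle, fewer cells of a type and less RNA per cell cannot be told apart.

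**Figure D1:**
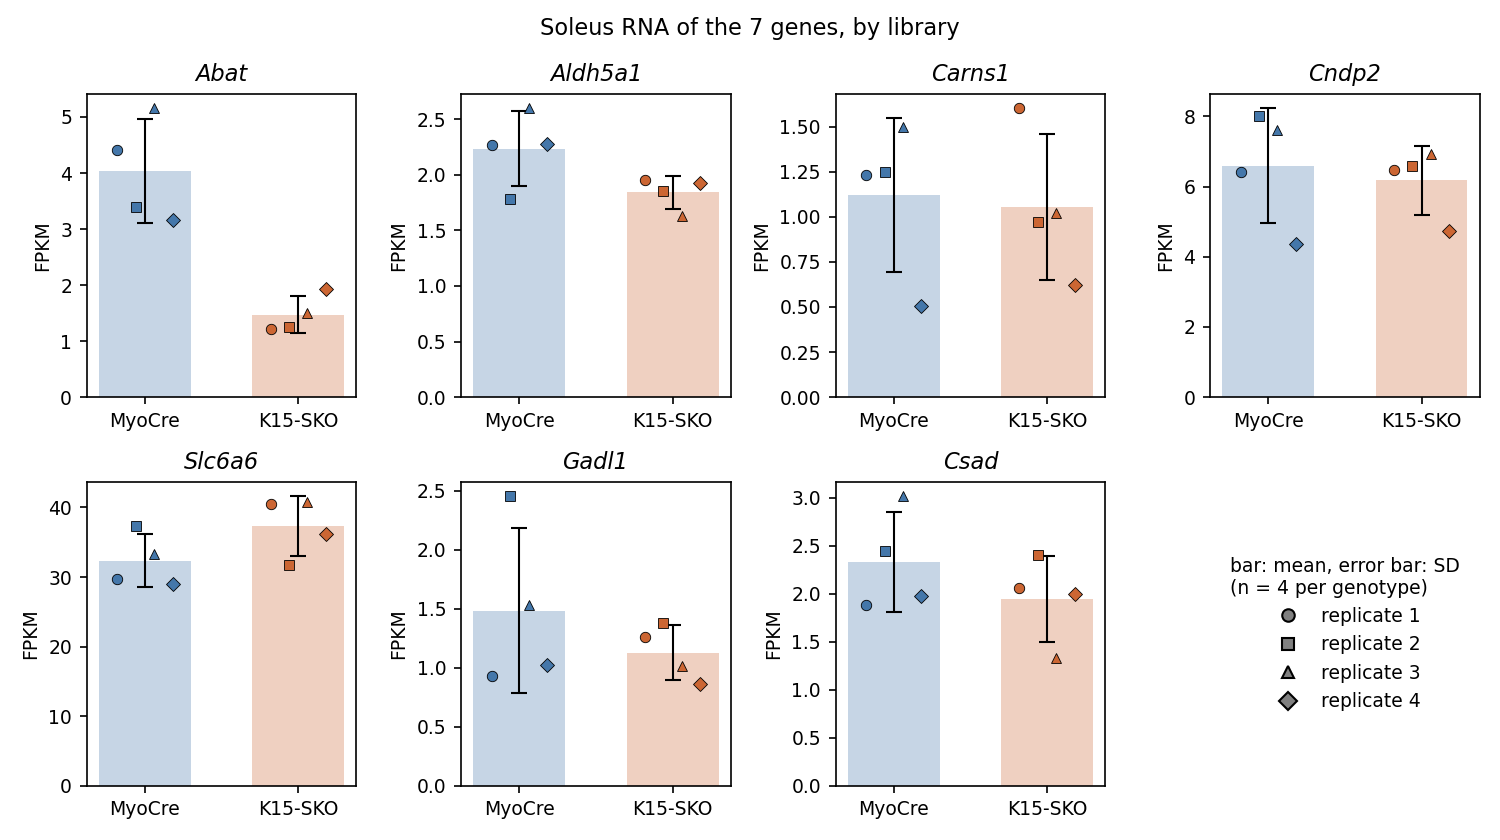
FPKM of each of the 7 genes in the 4 MyoCre (blue) and 4 K15-SKO (orange) libraries; bars show means, error bars SD, and each symbol is 1 mouse. Abat is the panel whose groups separate, with K15-SKO libraries at 1.22 to 1.93 FPKM and MyoCre libraries at 3.16 to 5.16.

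In the breakdown of GABA, Abat (ENSMUSG00000057880.12, chromosome 16, 8513429 to 8621568, plus strand, mm10) measured 4.40, 3.40, 5.16 and 3.16 FPKM in MyoCre replicates 1 to 4 and 1.22, 1.25, 1.50 and 1.93 FPKM in K15-SKO replicates 1 to 4. The highest K15-SKO library stayed under the lowest MyoCre library. The means were 4.03 ± 0.93 and 1.47 ± 0.33 FPKM (SD, n = 4 each), so the K15-SKO mean was 36.5% of the control mean. On the log2 scale the difference was -1.19 (SE 0.20), or -1.07 relative to all genes, which placed Abat 116th from the lowest of 12535 tested genes. Without MyoCre replicate 3, the library with the highest Abat value, the log2 fold change was -1.08 and Abat was not among the genes called. The same held when median-of-ratios scaling was joined to the removal of genes with no value in 1 genotype (log2 fold change -1.07). At a minimum mean of 5 FPKM it was not in the fit, because its mean over 8 libraries was 2.75 FPKM.

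Aldh5a1, the next enzyme of the same route (ENSMUSG00000035936.6, chromosome 13, 24907579 to 24937661, minus strand), did not show a difference of that size. It measured 2.27, 1.78, 2.60 and 2.27 FPKM in the controls and 1.95, 1.86, 1.63 and 1.93 FPKM in the K15-SKO mice. MyoCre replicate 2 lay below 3 of the K15-SKO libraries, so the groups overlapped. The means were 2.23 ± 0.34 and 1.84 ± 0.15 FPKM (log2 fold change -0.22, SE 0.17, or -0.09 relative to all genes). The gene has 1 annotated transcript, and its values correspond to an estimated 96.5 to 228 fragments per library. The antisense transcript 4932702P03Rik overlaps it over 6694 bases, and reads of the pair cannot be told apart without a stated strand setting.

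A ratio of 2 genes within a library does not depend on how the libraries were scaled. Abat to Aldh5a1 was 1.94, 1.91, 1.99 and 1.39 in the MyoCre libraries and 0.623, 0.675, 0.916 and 1.00 in the K15-SKO libraries, on the FPKM scale. MyoCre muscle thus held more Abat than Aldh5a1 RNA per length in each of 4 mice, and K15-SKO muscle held about as much or less. The ratio of Abat to Csad (1.39 to 2.34 against 0.520 to 1.12), to Cndp2 (0.424 to 0.724 against 0.188 to 0.407) and to Slc6a6 (0.0910 to 0.155 against 0.0300 to 0.0534) also separated the genotypes. The ratios of Abat to Gadl1 (1.39 to 4.73 against 0.909 to 2.24) and to Carns1 (2.72 to 6.25 against 0.758 to 3.10) overlapped. Ratios that leave Abat out overlapped too: Csad to Gadl1 was 1.73 ± 0.49 in MyoCre and 1.76 ± 0.42 in K15-SKO muscle, and Aldh5a1 to Csad was 0.986 ± 0.228 and 0.976 ± 0.187.

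**Figure D2:**
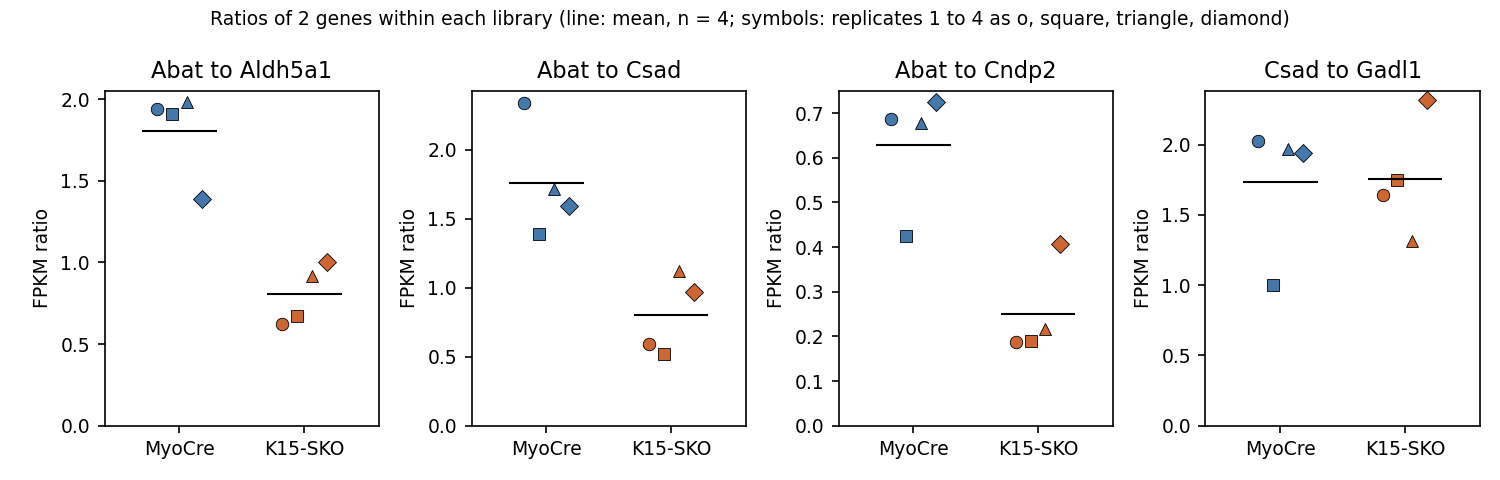
FPKM ratio of 2 genes within each library (y axis, no unit) for MyoCre (blue) and K15-SKO (orange); each symbol is 1 mouse and the line is the mean of 4. The 3 ratios drawn with Abat in the numerator separate the genotypes, for example 1.39 to 1.99 against 0.623 to 1.00 for Abat to Aldh5a1, and Csad to Gadl1 does not. Of the Abat ratios not drawn, the one to Slc6a6 separates the genotypes and those to Gadl1 and Carns1 overlap.

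In the supply of beta-alanine, Gadl1 (ENSMUSG00000056880.12, chromosome 9, 115909455 to 116076176, plus strand) was low and varied most between control mice. It measured 0.930, 2.45, 1.53 and 1.02 FPKM in control muscle and 1.26, 1.38, 1.01 and 0.860 FPKM in K15-SKO muscle, and the groups overlapped. Its highest value was in MyoCre replicate 2, the only male library, and its coefficient of variation was 47.0% in MyoCre against 20.8% in K15-SKO muscle. The log2 fold change was -0.24 (SE 0.24), and -0.02 without that library. The part of sex in the level of Gadl1 was not tested, with 1 male mouse. The antisense transcript Gm16142 overlaps Gadl1 over 10833 bases and the pseudogene Gm9385 over 472, and their reads may be included.

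The carnosine genes did not show a difference between genotypes beyond their spread. Carns1, the ATP-dependent carnosine synthase (ENSMUSG00000075289.4, chromosome 19, 4164324 to 4175479, minus strand), had the lowest mean level of the 7, with 1.23, 1.25, 1.50 and 0.505 FPKM in control muscle and 1.60, 0.972, 1.02 and 0.622 FPKM in K15-SKO muscle. Replicate 4 was the lowest library of each genotype. The means were 1.12 ± 0.43 and 1.05 ± 0.41 FPKM (log2 fold change -0.05, SE 0.26), and the sign turned under median-of-ratios scaling (0.05). Counted over its longest transcript, its values correspond to at most an estimated 21.0 to 112 fragments per library, or 36.4 to 112 over the 5 libraries whose depth was clearly estimated, which leave out MyoCre replicate 4. The antisense transcript Gm17552 overlaps it, and reads of the pair cannot be told apart without a stated strand setting. A processed transcript, AC109138.8, overlaps Carns1 on the same strand over 6738 bases, where a strand setting would not separate the reads.

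Cndp2, the dipeptidase at the other end of the carnosine route (ENSMUSG00000024644.16, chromosome 18, 84667465 to 84685702, minus strand), was the second most abundant of the 7 genes. It measured 6.41, 8.02, 7.62 and 4.36 FPKM in control muscle and 6.47, 6.60, 6.92 and 4.74 FPKM in K15-SKO muscle, again with replicate 4 lowest in both. Summed over the 10 muscle fibre markers, replicate 4 was also the lowest of each genotype, at 13821 FPKM in control and 15037 FPKM in K15-SKO muscle. The highest libraries had 23219 and 26879 FPKM. K15-SKO replicate 3 had a similarly low sum, 15729 FPKM, but the highest Cndp2 value of its genotype, 6.92 FPKM. Its Carns1 value was 1.02 FPKM, against 0.622 FPKM in K15-SKO replicate 4. Whether the fibre content of a sample has a part in the levels of Carns1 and Cndp2 was not tested. The log2 fold change of Cndp2 was -0.07 (SE 0.21), and 0.06 under median-of-ratios scaling.

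Among the taurine genes the transporter Slc6a6 (ENSMUSG00000030096.8, chromosome 6, 91684053 to 91759066, plus strand) was by far the most abundant, and of the 7 it alone had a higher mean in K15-SKO muscle. It measured 29.8, 37.4, 33.3 and 29.0 FPKM in control muscle and 40.5, 31.7, 40.8 and 36.1 FPKM in K15-SKO muscle. Of the 4 K15-SKO libraries, 2 lay above every MyoCre library, and the other two fell within the MyoCre range. The means were 32.4 ± 3.83 and 37.3 ± 4.30 FPKM (log2 fold change 0.20, SE 0.17, or 0.33 relative to all genes). The fold change was positive in all 18 alternatives, from 0.15 to 0.34. Some of these, such as a changed filter or the replicate block, cannot move a fold change. Slc6a6 starts 1.21 Mb after the end of Klf15 on the same chromosome. Gm45828 overlaps Slc6a6 on the same strand over 1836 bases, and 4930517G19Rik and Gm44981 overlap it on the opposite strand. Their reads may be included.

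Csad, the decarboxylase of taurine synthesis (ENSMUSG00000023044.1, chromosome 15, 102176999 to 102204724, minus strand), measured 1.88, 2.45, 3.02 and 1.98 FPKM in control muscle and 2.06, 2.41, 1.33 and 2.00 FPKM in K15-SKO muscle. The groups overlapped, and the lowest value was that of K15-SKO replicate 3. The log2 fold change was -0.21 (SE 0.20), and -0.08 without that library. The 5′ end of Csad overlaps Zfp740 on the opposite strand over 1476 bases, so some of its reads may belong to that gene.

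Ordered by level per length in MyoCre muscle, Slc6a6 came first, above Cndp2, Abat, Csad, Aldh5a1, Gadl1 and Carns1. Slc6a6 exceeded 86.8% of all tested genes, Cndp2 51.3%, Abat 35.9% and Carns1 2.97%. The libraries of Slc6a6 and Cndp2 did not overlap, nor did those of Abat and Csad, while the other neighbours in this order overlapped. In K15-SKO muscle the order was Slc6a6, Cndp2, Csad, Aldh5a1, Abat, Gadl1 and Carns1. Abat thus stood at rank 3 of 7 in control muscle and at rank 5 in K15-SKO muscle, where it exceeded 9.95% of tested genes, and the genes from Csad down overlapped their neighbours in the order. In K15-SKO muscle Slc6a6 and Cndp2 did not overlap, and neither did Cndp2 and Csad.

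**Figure D3:**
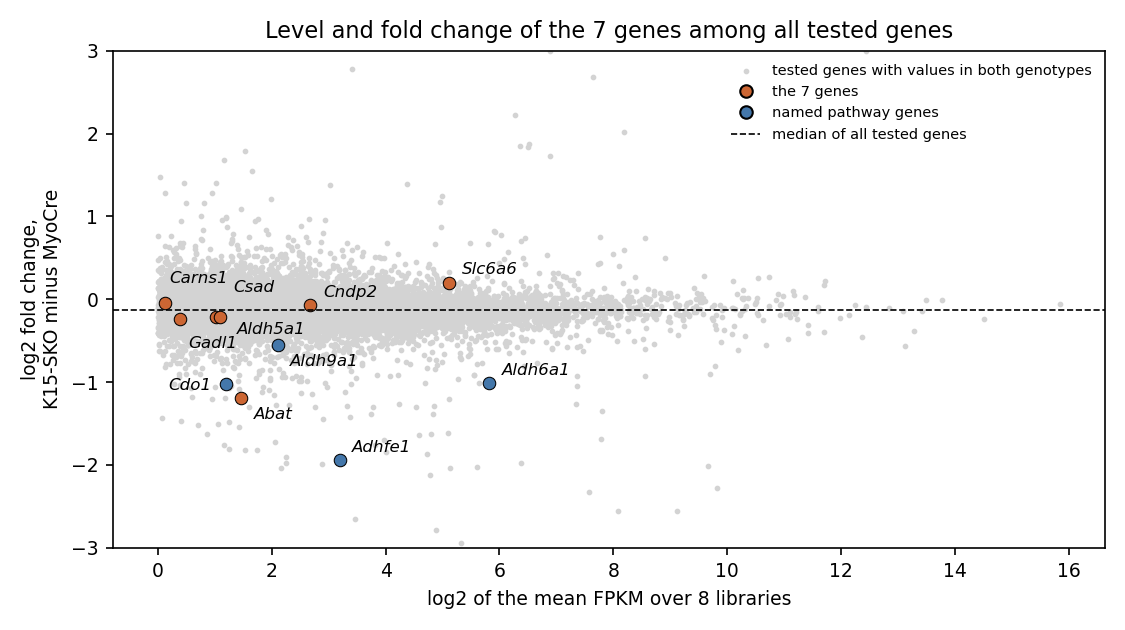
Log2 fold change (y axis, K15-SKO minus MyoCre) against the log2 mean FPKM over 8 libraries (x axis) for tested genes with values in both genotypes (grey; 18 lie outside the range drawn), the 7 genes (orange) and 4 other pathway genes (blue); the dashed line is the median of all tested genes. Abat at -1.19 lies apart from the other 6 genes, which span -0.24 to 0.20.

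The rest of these pathways was followed in a list of 55 further genes, of which 49 were in the table and 21 were tested. Like the 7 genes, the list was written with earlier results of these data known. In it 1 gene was lower and 0 were higher past the threshold, where 0.183% of all tested genes were called lower and 0.367% higher. An unadjusted p under 0.05 was found for 4 of the 21, against 543 of 12535 tested genes, and 6 of the 21 were lower without overlap, against 2.72%. Overlap was judged on the deposited values, without median-of-ratios scaling, whose factor was lowest in K15-SKO replicate 3 (0.801). Division by that factor raises the values of this library, so groups apart by a small margin can overlap. The 6 were not counted again after such scaling. The list's median log2 fold change was -0.11, close to the -0.12 of all tested genes. The gene that fell was Adhfe1, a mitochondrial transhydrogenase that turns 4-hydroxybutyrate, a relative of GABA, into succinic semialdehyde, the substrate of Aldh5a1. Adhfe1 measured 13.8, 10.1, 17.1 and 18.1 FPKM in control muscle and 4.16, 3.95, 2.16 and 3.62 FPKM in K15-SKO muscle (log2 fold change -1.94, SE 0.23, limma adjusted p = 0.000328). Its groups were far apart, and it passed in all 18 alternatives. The transcript 2610203C22Rik on the opposite strand and the pseudogene Gm6161 overlap Adhfe1, over 19842 and 1102 bases, and their reads may be included.

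Other enzymes around Abat were lower without overlap in the deposited, unscaled values and did not pass. Aldh9a1, the GABA-making dehydrogenase shown above, measured 4.92, 4.15, 6.29 and 5.46 FPKM in control muscle and 2.61, 3.74, 3.39 and 3.82 FPKM in K15-SKO muscle (log2 fold change -0.55, SE 0.19, limma adjusted p = 0.695). Aldh6a1, which oxidises malonic semialdehyde made from beta-alanine by Abat, measured 75.3 ± 15.7 and 37.3 ± 8.63 FPKM (log2 fold change -1.01, SE 0.22, limma adjusted p = 0.0831). Both passed with library quality weights (limma adjusted p = 0.0452 and 0.0126), and Aldh6a1 also without MyoCre replicate 2 or K15-SKO replicate 4 (0.0367 and 0.0395). In all, Aldh9a1 passed in 1 of 17 alternatives and Aldh6a1 in 3 of 18. Their limma adjusted p reached 0.99998 and 0.413, for Aldh9a1 under median-of-ratios scaling (log2 fold change -0.43). Glud1, the glutamate dehydrogenase, had groups that just missed each other, 44.2 to 51.7 and 29.2 to 43.4 FPKM (log2 fold change -0.27, SE 0.18). The aldehyde reductase Akr7a5 and the monoamine oxidase Maob overlapped, with log2 fold changes of 0.04 and -0.15.

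Most genes for the decarboxylation route to GABA, its transport and its receptors had very low values. Gad1, a glutamate decarboxylase that makes GABA, reached at most 0.180 FPKM, and the 4 GABA transporter genes in the table reached at most 0.369 FPKM, so none was tested. Of the 16 GABA receptor subunit genes measured, 15 were below the filter, with no value above 0.531 FPKM. Gabbr1, a subunit of the metabotropic receptor, was the 1 that passed it, with 6.52 ± 0.91 FPKM in control muscle and 5.99 ± 0.36 FPKM in K15-SKO muscle (log2 fold change -0.11, SE 0.17). Its partner Gabbr2 measured at most 0.0341 FPKM.

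Of the taurine list, Cdo1, which makes the cysteine sulfinate that Csad uses, measured 3.28, 2.38, 3.12 and 4.07 FPKM in control muscle and 1.40, 2.34, 0.959 and 0.831 FPKM in K15-SKO muscle. The groups did not overlap, by a small margin between MyoCre replicate 2 and K15-SKO replicate 2 (log2 fold change -1.03, SE 0.25, limma adjusted p = 0.142). Cdo1 passed in 2 of 17 alternatives, without K15-SKO replicate 2 (limma adjusted p = 0.0218) and with library quality weights (0.0362). Over the 17 its limma adjusted p reached 0.597. Fat cells also express Cdo1. Their markers Adipoq (1.60 FPKM), Plin1, Cidec, Retn and Cfd were lowest in K15-SKO replicate 4, where Cdo1 was lowest too. The markers Fabp4, Pparg and Lep were not lowest there. Over all 8 adipocyte markers, 6 had a lower mean in K15-SKO muscle, with no marker at 0. Their summed level was 262.1 to 349.9 FPKM in control muscle and 256.4 to 503.5 FPKM in K15-SKO muscle. Most of each sum came from Fabp4, at 217.0 to 306.1 FPKM in control and 226.2 to 458.0 FPKM in K15-SKO muscle. The sum was highest in K15-SKO replicate 3, where Cdo1 was 0.959 FPKM, but the markers did not agree there. Adipoq (2.86 FPKM) and Plin1 (1.14 FPKM) lay below every MyoCre library. Fabp4 (458.0 FPKM), Cidec (3.69 FPKM) and Pparg (5.37 FPKM) lay above every one, and Retn, Cfd and Lep lay within the MyoCre range. The part of fat cells in the level of Cdo1 was not tested. Ado, which makes hypotaurine from cysteamine, and Fmo1, which oxidises hypotaurine to taurine, overlapped, with log2 fold changes of -0.29 and 0.03.

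In the carnosine list, Slc15a4, a lysosomal transporter of histidine and dipeptides, was lower without overlap in the deposited, unscaled values. It had 4.83 to 5.40 FPKM in control muscle and 3.94 to 4.34 FPKM in K15-SKO muscle, and did not pass (log2 fold change -0.25, SE 0.15, limma adjusted p = 0.957). Carnmt1, which methylates carnosine to anserine, had a log2 fold change of 0.14 (SE 0.28), and Pm20d2, a dipeptidase that clears side products of the carnosine synthase, one of -0.18 (SE 0.20). The peptide transporter Slc15a2 ranged from 0.127 to 4.10 FPKM within MyoCre alone. Slc7a5, a carrier of large neutral amino acids such as histidine, was listed at 0 in all 4 MyoCre libraries and at 1.36, 1.11, 2.12 and 1.45 FPKM in K15-SKO muscle. No fold is given for it, and its mean was below the filter.

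**Figure D4:**
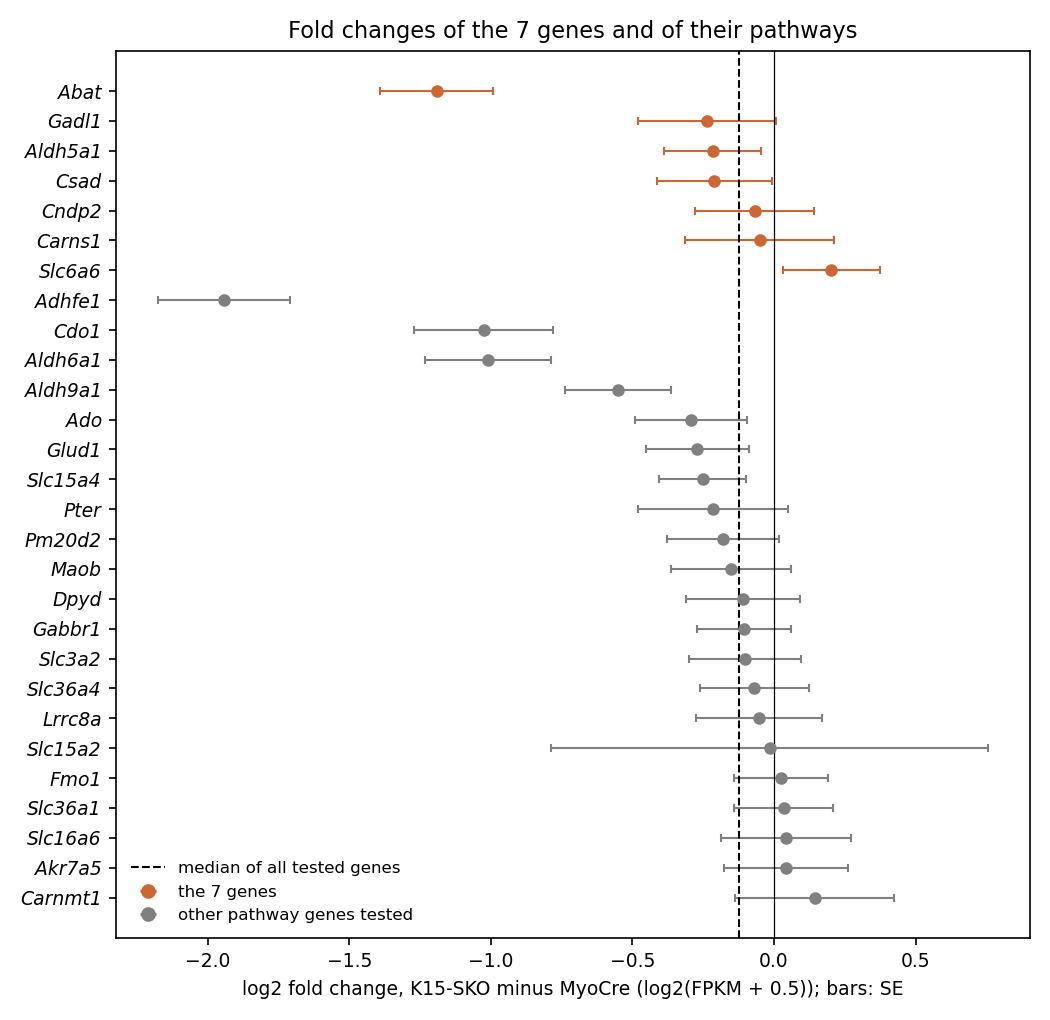
Log2 fold change (x axis, K15-SKO minus MyoCre, log2(FPKM + 0.5) scale) with its SE for the 7 genes (orange) and the 21 other pathway genes tested (grey); the dashed line is the median of all tested genes, -0.12. Adhfe1 (-1.94), Abat (-1.19), Cdo1 (-1.03), Aldh6a1 (-1.01) and Aldh9a1 (-0.55) lie farthest to the left.

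Cell types other than muscle fibres can express these genes as well. Macrophage markers summed to 19.6 to 22.0 FPKM in control muscle and 10.9 to 19.7 FPKM in K15-SKO muscle, with a lower mean for 5 of 5 markers. Schwann cell and nerve markers summed to 54.7 to 59.9 and 45.6 to 62.3 FPKM (4 of 5 lower), and fibroblast markers to 529.6 to 921.5 and 393.6 to 684.8 FPKM (6 of 6 lower). Endothelial markers went the other way, with sums of 77.8 to 106.6 and 99.5 to 121.1 FPKM (1 of 5 lower), and among them Cdh5 was higher without overlap, at 29.1 to 31.8 against 18.3 to 27.1 FPKM. Red cell markers summed to 2034 FPKM in K15-SKO replicate 3 and to between 284.0 and 577.4 FPKM in the other 7 libraries (0 of 5 lower). Without that library the log2 fold change of Abat was -1.20. None of these sums separated the genotypes, no marker was at 0 throughout, and 0 markers of these lists passed the threshold. Their part in the level of Abat was not tested.

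For each of the 7 genes, the 3 most similar of 12375 other genes were found by Pearson correlation of log2 values over the 8 libraries. These libraries differ in genotype, overall level and estimated depth, and such differences are common to all genes. Nearest to Abat were Dhtkd1 (r = 0.973), a subunit of a mitochondrial dehydrogenase of lysine breakdown, Dynlt1f (0.969) and Adamtsl5 (0.963). After removal of the genotype means these values were 0.772, 0.787 and 0.826. Nearest to Cndp2 was Pmm1, a phosphomannomutase, with r = 0.997 before and after that removal, and nearest to Aldh5a1 was Armc10 (0.979 and 0.971). Before that removal the transporter Slc6a6 had the loosest neighbours, Ephx1 (0.919), Notch3 (0.894) and Gm16163 (0.892). After it these values were 0.895, 0.838 and 0.880, each above those of Abat. With 8 points and 12375 genes, high values are common, and nothing is said of shared function.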

How the data were processed

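RNA of 8 soleus samples was compared, 4 MyoCre and 4 K15-SKO, each column assigned to its mouse through its label; the table holds 0 columns of other samples. The deposited values are taken as FPKM, made by the authors with STAR, Cufflinks and Cuffdiff on mm10, per the submitters' processing notes. That unit is inferred, since the table's header gives only sample names; versions, annotation release, strand setting and library scaling are not named there or in the labels. An exact 0 can be a failed estimate.

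Values were tested as log2(FPKM + 0.5) with limma 3.58.1 in R 4.3.3 (trend, robust, genotype alone) over the 12535 genes whose mean reached 1 FPKM, with two-sided p-values adjusted by Benjamini-Hochberg and a threshold of 0.05. The fit was tested on simulated data. The log2 scale with this pseudocount understates the change of low genes. Depth was estimated from the spacing of low values in single-transcript genes over 1000 bases (GENCODE M21 lengths). The spacing was clear in 5 libraries, at 8150000 to 22600000 fragments, or 8.15 to 22.6 fragments per kilobase at 1 FPKM, and weak in 3. Whole counts could not be recovered, which leaves out count models.

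The 7 genes and the gene lists were chosen with earlier results of these data known. Named are the 7 genes, Klf15, the pathway list and the 3 tested genes most correlated with each of the 7; marker genes and overlapping genes are named where they bear on a value. Alternatives were pseudocounts of 1 and 0.1, no filter or a mean of 5, median-of-ratios scaling, no robust estimation, library weights, no genes at 0 in a genotype, the replicate number as a block, and each library left out. A fit that joins median-of-ratios scaling with the removal of genes at 0 was chosen after seeing the data.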

Additional observations from a re-analysis of the deposited data

Results flagged for a closer look

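Among 58 groups of 4 values (the 7 genes, Klf15 and the 21 other pathway genes tested, in each genotype), 3 held 1 library far from the other 3, where chance at 1 in 20 gives 2.9. In K15-SKO replicate 3, Glud1 was 29.2 FPKM against 43.0 to 43.4 in the other K15-SKO libraries. In the same library Slc16a6, a monocarboxylate transporter family member that carries taurine, was 6.43 FPKM against 3.14 to 3.64. Fmo1 was 13.9 FPKM in K15-SKO replicate 1 against 11.8 to 12.1. No group of the 7 genes themselves held such a value.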

How the results depend on the processing

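The log2 fold changes of the 7 genes moved by less than the SD between mice in every alternative in which they were fitted, between -1.39 and -1.02 for Abat. In all of these 5 genes kept their sign, and Carns1 and Cndp2 turned sign in 6 and 5. A changed filter, no robust estimation, removal of the genes at 0 alone and the replicate block cannot change a fold change. Only the other alternatives bear on its size and sign. The number of the 7 genes past the threshold, 1 in limma, became 0 at a minimum mean of 5 (0 at an unadjusted p under 0.05) and 0 in the fit without genes at 0 and with median-of-ratios scaling (1 at an unadjusted p under 0.05). Leaving out 1 library gave 0 to 1, with 0 only without MyoCre replicate 3. In the pathway list the 1 lower gene became 4 with library quality weights and 1 to 2 with 1 library left out, Adhfe1 among them each time. Over all genes the 23 lower genes became 101 with library quality weights, 15 with median-of-ratios scaling, 15 without robust estimation, 12 without the genes at 0 in a genotype, 3 when that removal and median-of-ratios scaling were combined, and 8 to 28 with 1 library left out (8 without MyoCre replicate 3, 13 without K15-SKO replicate 1, 14 without MyoCre replicate 1). Klf15 missed the threshold with no filter, without robust estimation and without the genes at 0 (each -1.28), and with median-of-ratios scaling with or without that removal (-1.15); with 1 library left out its log2 fold change was -1.55 to -1.18, and it missed without MyoCre replicate 1, 2 or 3 (adjusted p = 0.123, 0.0855 and 0.199) and without K15-SKO replicate 1, 3 or 4 (0.0939, 0.152 and 0.0534). The cause of these changes was not tested.

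Replicate numbers are shared between genotypes, and the labels do not say whether they mark pairs. Deviations of same-numbered libraries correlated at 0.148, 0.343, 0.00701 and 0.335, and 6 of 8 libraries correlated best with their own number. The main fit did not take the numbers as pairs, and a fit with them as a block is given here. With the replicate block 32 genes were lower, and 1 of the 7 genes (Abat, log2 fold change -1.19) and 1 of the pathway list passed. Klf15 stayed at -1.28, with an SE of 0.18 against 0.25 in the main fit. Its limma adjusted p was 0.00534 with the block and 0.0315 without. Each replicate number occurs once in each genotype, so the block cannot change a fold change, only its SE and p. The fold changes of Aldh5a1 (-0.22), Carns1 (-0.05), Cndp2 (-0.07), Slc6a6 (0.20), Gadl1 (-0.24) and Csad (-0.21) are therefore the same with and without it. Depth limits Carns1, Gadl1 and Csad most, with at most an estimated 21.0 to 60.0 fragments for Carns1 outside MyoCre replicate 2. Both ends of that range come from libraries with a weak depth estimate. The libraries with a clear one, MyoCre replicate 2 left out, had 36.4 to 55.7. It also limits Abat in K15-SKO replicates 1 and 2, with at most an estimated 49.4 and 54.7 fragments. Csad had at most 41.2 and 51.8 in the same libraries.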
